A study of Mus musculus with 8 samples.

Results

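The 10 genes described here encode the NF-kB transcription factor subunits and their I-kappa-B inhibitors: Rela, Rel, Relb, Nfkb1, Nfkb2, Nfkbia, Nfkbib, Nfkbie, Nfkbid and Nfkbiz. They were chosen by name, as members of the Rel and I-kappa-B families, and all 10 have a row among the 24421 genes of the deposited count table and passed the filter on low counts. The mRNA came from follicular regulatory T (TFR) cells, the regulatory T cells that enter B cell follicles, enriched from mouse spleen as CD4+ T cells and sorted as Foxp3+YFP+ CXCR5+ PD1+. All mice had been given peanut with cholera toxin, a mucosal adjuvant, in 2 oral challenges, and cells were taken 36 days later. The series holds 4 libraries labelled Wildtype (WT) and 4 labelled Blimp1-flox (Blimp1) Foxp3-cre, called Blimp1-flox here. Foxp3-cre drives recombination in Foxp3-expressing cells, so the deletion is not limited to TFR cells. The age of the mice, the number of floxed alleles, whether the WT mice carried Foxp3-cre and whether each library came from a separate mouse are not stated in the labels. The p-values therefore measure only how these libraries vary, and some of that variation may be technical. The comparison addresses how loss of Blimp1, the transcriptional repressor encoded by Prdm1, relates to the transcripts of these genes in TFR cells.

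NF-kB factors are dimers of Rel family proteins. RelA, c-Rel and RelB carry transactivation domains, while Nfkb1 and Nfkb2 encode the precursors p105 and p100, which are processed to the subunits p50 and p52. In resting cells the classical inhibitors I-kappa-B alpha (Nfkbia), beta (Nfkbib) and epsilon (Nfkbie) hold dimers in the cytoplasm until the IKK kinase complex marks them for destruction. The nuclear family members I-kappa-B-NS (Nfkbid) and I-kappa-B zeta (Nfkbiz) instead act on DNA-bound dimers. Several of these genes, Nfkbia above all, are themselves NF-kB targets and form feedback loops. In the regulatory T cell lineage, c-Rel and I-kappa-B-NS are known for their part in induction of Foxp3.

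Because such feedback works through kB sites, the motif was looked up in the promoters of the members. RefSeq windows (GRCm38.p6) from 250 bases before to 50 bases after a gene start were at hand for 7 of the 10 members, in 11 windows; none was at hand for Relb, Nfkb1 and Nfkbiz. On either strand, the 10-base kB consensus matched in 7 of the 11 windows and in 5 of the 7 genes, namely Nfkbia, Nfkbid, Nfkbie, Rel and Nfkb2. It matched in 8.46% of all 32851 windows and in 9.55% of all 27025 genes with a window. The stretches below carry the matches that lie before the start and outside annotated exons. Each is read 5′ to 3′ on the strand of the gene, with the matched bases in capitals.
Nfkbia: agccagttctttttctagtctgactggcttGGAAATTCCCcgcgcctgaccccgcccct
Nfkbid: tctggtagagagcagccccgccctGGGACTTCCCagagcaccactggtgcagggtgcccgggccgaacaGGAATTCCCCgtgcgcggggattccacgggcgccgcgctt
Nfkbie: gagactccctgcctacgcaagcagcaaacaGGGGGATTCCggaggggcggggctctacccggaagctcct
Rel: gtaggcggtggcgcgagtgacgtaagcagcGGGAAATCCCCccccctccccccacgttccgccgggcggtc
The Nfkbia stretch lies at chr12:55492648-55492706 on the minus strand, and its match covers the bases from 29 to 20 before the start. The Nfkbid stretch lies at chr7:30422156-30422264 on the plus strand, before the second of 3 RefSeq starts and within an intron of the longer GENCODE M21 gene model. It also lies before the first exon that the deposited table counts for Nfkbid. The Nfkbie stretch lies at chr17:45555564-45555633 on the plus strand, with its match from 106 to 97 bases before the start. The Rel stretch lies at chr11:23771021-23771091 on the minus strand, and 2 overlapping matches there span 11 bases, from 92 to 82 before the start. The Nfkb2 matches lie in bases that are exonic in some annotated transcript and are not printed. No kB match lay in the windows of Rela and Nfkbib. The core GTGAAAG of the Blimp1 motif, searched on both strands, matched in 1 of the 11 windows, the one of the third Nfkb2 start, against 4.24% of all windows, and it did not overlap a kB match. These matches describe letters only and do not show binding.

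Library totals ranged from 16425538 to 27595939 counts, and raw counts of the 10 genes ranged from 825 to 50032 per library. Prdm1, the targeted gene, stood at 31.8 to 71.0 CPM (counts scaled by TMM to a common library total) in WT and at 7.53 to 16.6 CPM in Blimp1-flox. Its log2 fold change was -2.14 (edgeR quasi-likelihood adjusted p = 0.0203). Of the TFR markers, Cxcr5 and Pdcd1 were present at 391 to 568 and 774 to 1477 CPM over the 8 libraries. Foxp3 stood at 72.5 to 105 CPM in WT and at 55.7 to 75.5 CPM in Blimp1-flox, with overlap. Its log2 fold change of -0.40 did not pass in edgeR (unadjusted p = 0.00775, adjusted p = 0.176) and passed in limma-voom (-0.43, adjusted p = 0.0321). The 13 TFR markers with a row summed to 7271 to 8781 CPM in WT and 7286 to 8680 CPM in Blimp1-flox. Of the 13, 7 had positive and 6 negative log2 fold changes. EdgeR called 1 of them lower, Il2ra (log2 fold change -1.39, adjusted p = 0.0311), against 0.243% of all tested genes, and none higher. The summed level of 15 B cell markers was 942 CPM in WT 4, 259 to 402 CPM in the other WT libraries and 215 to 292 CPM in Blimp1-flox. All 15 were detected, and much of the sum outside WT 4 came from Cd22, whose level was 167 to 240 CPM over the 8 libraries. An exact permutation test of that sum, two-sided, gave p = 0.114 (0.257 adjusted over 9 marker sums), where the smallest p the 70 assignments allow is 0.0286. Gene by gene the list differed more: 14 of 15 were negative, against 49.9% of all tested genes, with a median log2 fold change of -3.51. At an edgeR unadjusted p under 0.05, 11 were lower, against 9.05% of all tested genes. For 10 all Blimp1-flox libraries lay below all WT libraries, against 4.72% of all tested genes. None of the 15 was called by edgeR with all libraries. Cd79a and Ms4a1 were called lower by DESeq2 (adjusted p = 0.00365 and 0.000203). Without WT 4, edgeR also called both lower (log2 fold changes -2.10 and -3.06, adjusted p = 0.0368 and 0.0185). Limma-voom with all libraries called neither (adjusted p = 0.137 and 0.108). Summed levels in WT and Blimp1-flox were 98.9 to 128 and 78.5 to 212 CPM for 14 myeloid and dendritic markers, and 232 to 318 and 222 to 336 CPM for 6 plasma cell markers. They were 26.2 to 43.7 and 48.1 to 50.6 CPM for 6 CD8 and NK markers, with Klre1 at 0. The groups did not overlap in that sum, which gave the smallest exact permutation p, 0.0286 (0.257 adjusted over the 9 sums). They were 14.3 to 30.6 and 7.19 to 15.1 CPM for 8 erythroid and platelet markers, with Hba-a1, Hbb-bs and Hbb-bt at 0. Gene by gene, edgeR called 1 of 5 tested plasma cell markers higher, as it did 32 of all 12363 tested genes. Of these 5, 3 were positive and 2 negative. Of 11 tested myeloid and dendritic markers 10 were positive, against 6198 of all tested genes, with a median log2 fold change of 0.51. EdgeR called none of the myeloid, CD8 and NK, or erythroid and platelet markers. In these bulk samples, fewer cells of a type and less RNA per cell cannot be told apart.

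None of the 10 genes passed the test over all genes between the genotypes, where 62 of 12363 tested genes, 0.501%, were called by edgeR at an adjusted p under 0.05. The inhibitor genes Nfkbid and Nfkbia were the members with the lowest p-values. The ratio of Blimp1-flox to WT was 0.777 for Nfkbid, with a 95% interval from 0.672 to 0.898, and 0.781 for Nfkbia, with a 95% interval from 0.660 to 0.924. The log2 fold changes of the 10 genes ran from -0.40 for Rel to 0.12 for Nfkb1, with 6 negative and 4 positive, and had a median of -0.054. Over all tested genes 49.9% were negative and the median was 0.0012. At an unadjusted p under 0.05, 2 of the 10 were lower and none was higher, against 9.05% of all tested genes that were lower. For Nfkbid and Nfkb2 all Blimp1-flox libraries lay below all WT libraries, which held for 4.72% of all tested genes. No member had all Blimp1-flox libraries above all WT libraries, which held for 3.75%. At an adjusted p under 0.1, edgeR again called 0 members, and 1.47% of all tested genes. DESeq2 called 1 member, Nfkbid, and 3.36% of the genes it tested. Limma-voom with quality weights called 2, Nfkbid and Nfkbia, and 4% of all tested genes.

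**Figure D1:**
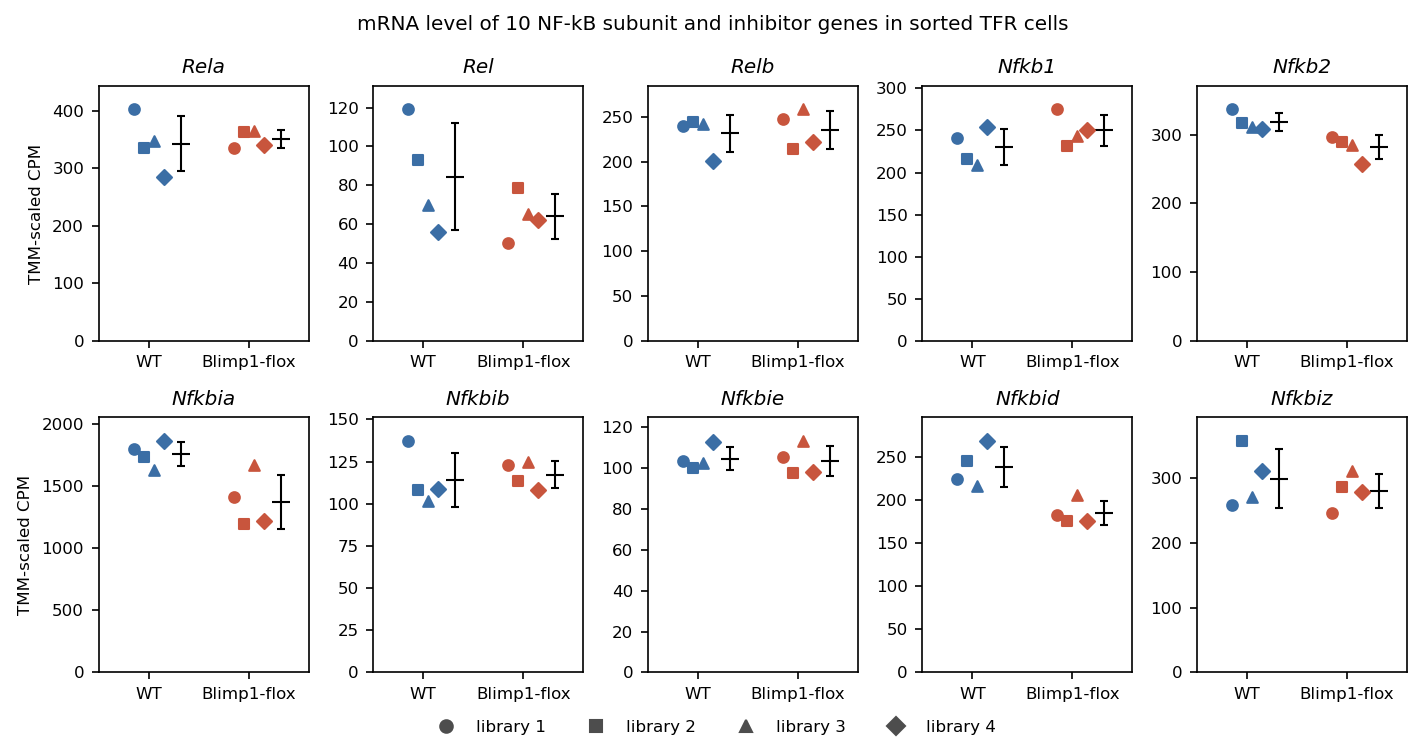
TMM-scaled CPM of the 10 genes in each library, with WT in blue, Blimp1-flox in red, 1 marker shape per replicate number, and the mean ± SD of 4 libraries beside each group. Each axis starts at 0. Nfkbid and Nfkb2 are the panels whose groups do not overlap, and the Blimp1-flox 3 library of Nfkbia reaches into the WT range.

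Compared per length of exon, Nfkbia was the most abundant transcript of the family by a wide margin. It stood at 1114 ± 63.1 CPM per kb in WT and 870 ± 139 CPM per kb in Blimp1-flox (SD, n = 4). This was 61.1% ± 1.5 of the summed per-length level of the 10 genes in WT and 56.3% ± 2.83 in Blimp1-flox (SD, n = 4). Rela followed in WT with 127 ± 17.8 CPM per kb, then Nfkbid with 119 ± 11.8, Relb with 105 ± 9.40 and Nfkb2 with 96.8 ± 3.90 CPM per kb. Neighbours among these overlapped in their WT libraries, so their order is not resolved. Nfkbiz at 77.1 ± 11.6 CPM per kb lay below Nfkb2 in all WT libraries, and Nfkb1 and Nfkbib followed at 56.0 ± 5.10 and 53.6 ± 7.52 CPM per kb, overlapping each other. Nfkbie at 42.9 ± 2.27 and Rel at 32.7 ± 10.7 CPM per kb were the lowest and overlapped too. In Blimp1-flox the order was the same except that Relb, at 107 ± 9.59 CPM per kb, came before Nfkbid, at 92.1 ± 7.08 CPM per kb, and those also overlapped. Rela lay above Relb in all Blimp1-flox libraries, and Nfkbie lay above Rel there.

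**Figure D2:**
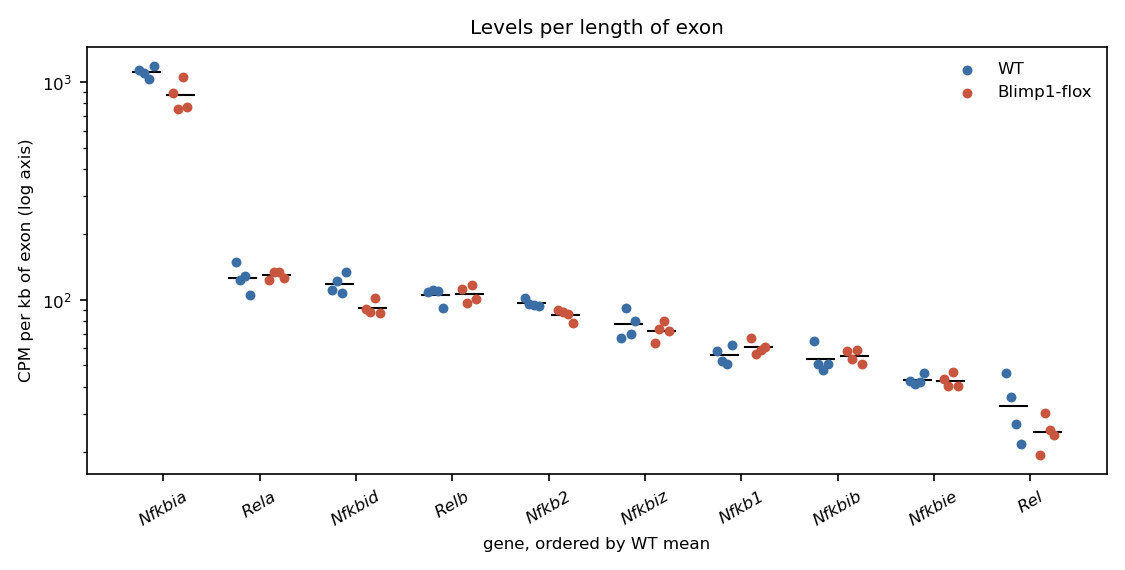
CPM per kb of exon on a log axis for the 10 genes, ordered by the WT mean, with 1 point per library (WT blue, Blimp1-flox red) and a bar at the mean of 4 libraries. Nfkbia stands at 757 to 1182 CPM per kb in all 8 libraries, while every other member lies between 19.4 and 149 CPM per kb.

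Among the transactivating subunits, Rela encodes the main partner of p50 in the classical pathway. Its level was 403, 335, 348 and 286 CPM in WT 1 to 4 and 336, 363, 365 and 340 CPM in Blimp1-flox 1 to 4. The WT libraries enclosed the Blimp1-flox libraries, with WT 1 highest and WT 4 lowest. It had a log2 fold change of 0.033, with a 95% interval from -0.19 to 0.26 (edgeR adjusted p = 0.905). The interval leaves out changes of Rela beyond a ratio of 0.875 or 1.20. Rela lies at chr19:5637490-5648130 in mm10.

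Rel encodes c-Rel, the subunit most bound to antigen receptor signals in lymphocytes, and it varied most between libraries. It stood at 119, 92.8, 69.8 and 56.2 CPM in WT and at 50.2, 78.4, 65.4 and 62.0 CPM in Blimp1-flox. WT 1 and WT 2 were above every Blimp1-flox library, whereas WT 4 was below 3 of them. Rel had the lowest log2 fold change of the family and the widest interval, at -0.40 ± 0.21 (SE) with a 95% interval from -0.87 to 0.073 (edgeR adjusted p = 0.388). Without WT 1 it was -0.19. WT 1 also had the highest summed level of 24 immediate early genes, transcripts known to rise within minutes of antigen receptor engagement or during cell isolation. That sum was 20311 CPM in WT 1, 14904 to 17967 CPM in the other WT libraries and 15170 to 16939 CPM in Blimp1-flox. Its part in the spread of Rel was not tested. The gene lies at chr11:23741729-23770970.

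Relb encodes the subunit that pairs with p52 in the alternative pathway. It stood at 240, 244, 243 and 201 CPM in WT, and at 247, 214, 259 and 221 CPM in Blimp1-flox. WT 4 stood apart below the other WT libraries and lay below every Blimp1-flox library. Blimp1-flox 1 and Blimp1-flox 3 lay above every WT library, and the ranges of the groups overlapped in part. For Relb the log2 fold change was 0.021 with a 95% interval from -0.19 to 0.23 (edgeR adjusted p = 0.936). Its direction is not settled: leaving out WT 4 gave -0.042, leaving out Blimp1-flox 3 gave -0.0265, leaving out Blimp1-flox 1 gave -0.0037, and limma-voom with all libraries gave -0.068. Relb lies at chr7:19606222-19629438.

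The precursor genes went in opposite directions, neither past the test. Nfkb2, which encodes p100 and is a known target of RelA, stood at 337, 316, 312 and 309 CPM in WT and at 296, 289, 285 and 258 CPM in Blimp1-flox. Every WT library lay above every Blimp1-flox library, and the gap between the nearest libraries was narrow. For Nfkb2 the log2 fold change was -0.18 ± 0.083 (SE) with a 95% interval from -0.35 to 0.0037 (edgeR adjusted p = 0.319). Nfkb1, which encodes p105, stood at 241, 217, 209 and 255 CPM in WT, and at 275, 231, 243 and 250 CPM in Blimp1-flox, with overlap. Its log2 fold change was 0.12 with a 95% interval from -0.086 to 0.32 (edgeR adjusted p = 0.561). Per length, the ratio of Nfkb2 to Nfkb1 within a library was 1.75, 1.83, 1.86 and 1.52 in WT and 1.35, 1.56, 1.46 and 1.29 in Blimp1-flox. Only WT 4 and Blimp1-flox 2 crossed in that ratio. Nfkb2 lies at chr19:46304737-46312090, where 4 of its 3292 exon bases are shared with Psd, and Nfkb1 at chr3:135584655-135691547.

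Nfkbia encodes the inhibitor that is resynthesised after each round of NF-kB activation and carries RelA dimers back out of the nucleus. It stood at 1800, 1733, 1633 and 1867 CPM in WT and at 1414, 1195, 1668 and 1218 CPM in Blimp1-flox. Blimp1-flox 1, 2 and 4 lay below all WT libraries, and Blimp1-flox 3 lay just above WT 3, so the groups overlapped by that 1 library. The log2 fold change of Nfkbia was -0.36 ± 0.11 (SE) with a 95% interval from -0.60 to -0.11 (edgeR unadjusted p = 0.00742, adjusted p = 0.176). Without Blimp1-flox 3 it was -0.46 (edgeR adjusted p = 0.0645). Limma-voom with quality weights, which gives less weight to libraries that stand apart, called it lower at -0.42 (adjusted p = 0.0227). That method called 2.27% of all tested genes lower. DESeq2 gave an adjusted p of 0.0702, and over the alternatives the adjusted p of Nfkbia lay between 0.0227 and 0.480. Nfkbia lies at chr12:55489409-55492647 and shares 15 of its 1579 exon bases with Mir1198, which held 0 to 2 counts per library.

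The other classical inhibitors differed little between the groups. Nfkbib, whose product I-kappa-B beta is degraded more slowly, stood at 137 CPM in WT 1, 102 to 108 CPM in the other WT libraries and 108 to 124 CPM in Blimp1-flox. For Nfkbib the log2 fold change was 0.042 with a 95% interval from -0.19 to 0.27 (edgeR adjusted p = 0.882). Nfkbie, whose product binds RelA and c-Rel dimers, was the steadiest member, at 100 to 113 CPM in WT and 97.7 to 113 CPM in Blimp1-flox. Its log2 fold change was -0.013 with a 95% interval from -0.21 to 0.18 (edgeR adjusted p = 0.958). Nfkbib lies at chr7:28758251-28766644 and shares 310 of its 2125 exon bases with Gm6537, which had no counts, so its counts are uncertain. Nfkbie lies at chr17:45555700-45563168.

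Nfkbid, the nuclear inhibitor I-kappa-B-NS, had the lowest p-value of the family. It stood at 224, 245, 216 and 269 CPM in WT, and at 183, 176, 206 and 176 CPM in Blimp1-flox. All 4 Blimp1-flox libraries lay below all 4 WT libraries, with Blimp1-flox 3 the nearest to WT. The log2 fold change of Nfkbid was -0.36 ± 0.096 (SE) with a 95% interval from -0.57 to -0.16 (edgeR unadjusted p = 0.00236, adjusted p = 0.112). A log2 fold change that low or lower was found for 10.3% of all tested genes. DESeq2 (-0.36, adjusted p = 0.0259) and limma-voom with quality weights (-0.35, adjusted p = 0.0313) called Nfkbid lower, as they did 1.89% and 2.27% of all genes they tested. Across the alternatives tried, the log2 fold change of Nfkbid lay between -0.42 and -0.30 and the adjusted p between 0.0259 and 0.373. Nfkbid lies at chr7:30423304-30428746 in the deposited table.

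WT 4, the library with the highest B cell marker sum, was also the highest of the 8 for both Nfkbid and Nfkbia. The other WT libraries did not follow that order. WT 3, with the next highest sum at 402 CPM, was the lowest WT library for both genes, at 216 and 1633 CPM. WT 1, with the lowest WT sum at 259 CPM, stood at 224 and 1800 CPM. Without WT 4 the log2 fold change was -0.30 for Nfkbid (edgeR adjusted p = 0.202) and -0.33 for Nfkbia (edgeR adjusted p = 0.275). Without WT 4 and Blimp1-flox 3 together they were -0.36 and -0.43 (edgeR adjusted p = 0.105 and 0.0735), and edgeR called 0 members and 157 genes in all. The B cell receptor gene Cd79a stood at 122 CPM in WT 4, 8.73 to 28.1 CPM in the other WT libraries and 2.51 to 4.57 CPM in Blimp1-flox. Ms4a1, which encodes CD20, ran from 4.76 to 65.0 CPM in WT and from 0.639 to 1.75 CPM in Blimp1-flox. For both genes every WT library was above every Blimp1-flox library. The part of B cell RNA in the levels of Nfkbid and Nfkbia in the remaining WT libraries was not tested.

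Nfkbiz, whose product I-kappa-B zeta is a coactivator at selected NF-kB targets, stood at 258, 357, 270 and 311 CPM in WT and at 245, 286, 310 and 279 CPM in Blimp1-flox. WT 2 was highest and the groups overlapped. For Nfkbiz the log2 fold change was -0.095 with a 95% interval from -0.34 to 0.15 (edgeR adjusted p = 0.719). The nuclear I-kappa-B genes Nfkbid and Nfkbiz thus had log2 fold changes of unequal size, and the difference between them was not tested. Nfkbiz lies at chr16:55811377-55838641.

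**Figure D3:**
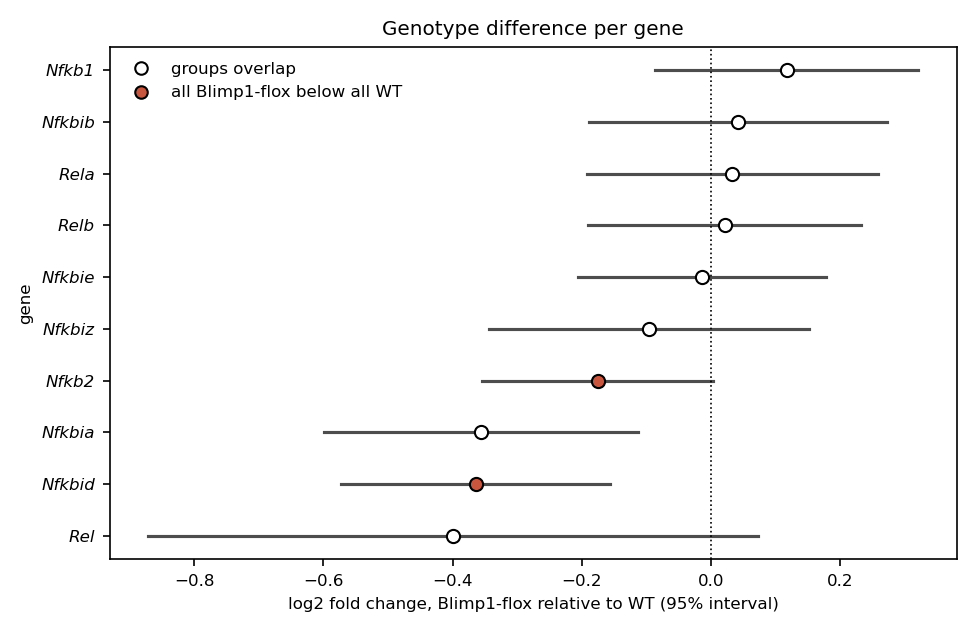
Log2 fold change of each gene, Blimp1-flox relative to WT, with its 95% interval from the edgeR fit over 4 against 4 libraries. Filled points mark genes whose groups do not overlap. The intervals of Nfkbia and Nfkbid lie below 0 before adjustment over all genes, and the other 8 include 0.

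Summed per length, the 5 I-kappa-B genes exceeded the 5 subunit genes in every library. They are called inhibitors here by family, although the product of Nfkbiz is a coactivator. The ratio of inhibitor to subunit transcripts was 3.07, 3.35, 3.16 and 3.99 in WT and 2.79, 2.49, 3.17 and 2.63 in Blimp1-flox. Blimp1-flox 3 was the 1 library of its group inside the WT range. The summed subunit level was 374 to 465 CPM per kb in WT and 389 to 423 CPM per kb in Blimp1-flox, so WT enclosed Blimp1-flox. The summed inhibitor level was 1301 to 1493 CPM per kb in WT and 1011 to 1344 CPM per kb in Blimp1-flox. The ratio of Nfkbia to Rela alone was 7.67, 8.88, 8.04 and 11.2 in WT and 7.22, 5.65, 7.84 and 6.15 in Blimp1-flox. These ratios are descriptions, and most of the inhibitor sum is Nfkbia.

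Deviations from each gene's mean log2 CPM showed how the members varied together. Their profiles over the 8 libraries were compared by the root mean square (RMS) difference of these deviations. That measure takes in the size of the deviations as well as their order over libraries. Of 45 pairs of members, Nfkbia and Nfkbid had the most similar profiles, with an RMS difference of 0.096, against a median of 0.20 over pairs. Nfkb1 and Rel had the least similar, at 0.45. Outside the family, the genes most like Nfkbid among 7815 candidates were Edem1, Mgst2 and Zc3h15, with RMS differences of 0.047, 0.054 and 0.062 and a median of 0.27 over candidates. The genes most like Nfkbia were Txnip, Hnrnpdl and H2-Q4, with RMS differences of 0.047, 0.064 and 0.070 and a median of 0.29. As the nearest of 7815 candidates, these genes lie below the median by the way they were picked. All of them were nearer than Nfkbia and Nfkbid were to each other, but they were picked from many more genes than that pair was. The comparison therefore cannot show whether the likeness of that pair is particular to the family. No library was uniformly high or low for the family. WT 1 was the highest library for 4 members, and WT 4 was the highest for 2 and the lowest for 2.

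**Figure D4:**
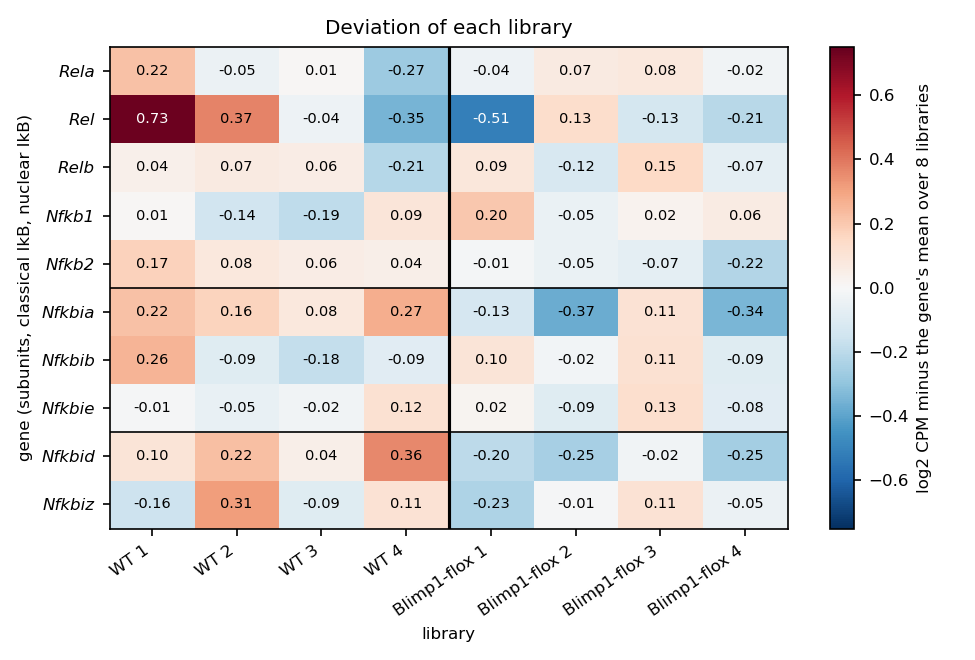
Log2 CPM of each gene in each library minus the gene's mean over the 8 libraries, with the value in each cell, WT left and Blimp1-flox right of the line, and lines between subunits, classical inhibitors and nuclear I-kappa-B genes. Rel spans the widest range, from 0.73 in WT 1 to -0.51 in Blimp1-flox 1, and Nfkbie the narrowest.

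The libraries also differed in transcripts of pancreatic acinar cells. Without Cela1 and Prss2, the summed level of 14 such genes was 20.2 to 45.4 CPM in WT 2, WT 4, Blimp1-flox 2 and Blimp1-flox 3, and 0.852 to 7.12 CPM in the other 4, with Amy2a5 at 0. With all 16 genes the sum was 34.2 to 73.8 CPM in WT and 52.5 to 110 CPM in Blimp1-flox. The exact permutation p between the genotypes was 0.0571 for all 16 genes (0.257 adjusted over the 9 sums) and 0.571 without Cela1 and Prss2, so it depended on those genes. The classes used below divide the libraries at 10 CPM of the sum without them, a limit set after seeing the data. All 15 tested genes of the list had positive log2 fold changes, and edgeR called none. For 2 of them all Blimp1-flox libraries lay above all WT libraries, against 3.75% of all tested genes. Between the 2 WT and 2 Blimp1-flox libraries of the higher class, the log2 ratio of mean levels was -0.43 for Nfkbid, -0.33 for Nfkbia and -0.12 for Nfkb2. In the lower class it was -0.29, -0.38 and -0.23. For Nfkbid and Nfkb2, whose groups do not overlap, any such division gives negative values, so their sign here adds nothing. Rel had log2 ratios of -0.051 and -0.75 in the higher and lower class, and Rela 0.23 and -0.15. With the class as a term, chosen after seeing the data, edgeR called Nfkbid lower (-0.36, adjusted p = 0.0382) and 391 genes in all.

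Upstream signalling genes were taken from 3 lists, and nuclear coactivators and other nuclear regulators from a further list. Of their 46 genes 45 were tested, and edgeR called none in either direction. At an unadjusted p under 0.05, 8 of the 45 were lower, against 9.05% of all tested genes, and none was higher. DESeq2 called 2 lower and limma-voom 3, against 1.89% and 2.27% of all genes they tested. Their median log2 fold change was -0.12, and 34 were negative, against 49.9% of all tested genes. Among 12 IKK and upstream kinases, the kinase IKK beta (Ikbkb) had a log2 fold change of -0.27, and NIK (Map3k14), which drives p100 processing, had -0.28. All 11 TRAF and IAP adaptor genes were negative, with a median of -0.11.

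Traf1, a TNF receptor adaptor and a known NF-kB target, stood at 401, 449, 416 and 476 CPM in WT and at 342, 353, 318 and 330 CPM in Blimp1-flox. The groups did not overlap. The log2 fold change of Traf1 was -0.37 ± 0.087 (SE; edgeR adjusted p = 0.0845), while DESeq2 called it lower (-0.37, adjusted p = 0.00470), as did limma-voom (-0.35, adjusted p = 0.0204). Over the alternatives its adjusted p reached 0.305. Birc2, which encodes the ubiquitin ligase cIAP1, did not overlap between the groups either, at -0.24 on the log2 scale (edgeR adjusted p = 0.262). Of 12 ubiquitin ligase and deubiquitinase genes, Tnip3, an A20-binding inhibitor, had the lowest value at -1.31 ± 0.32 (SE; edgeR adjusted p = 0.0991). It was scarce, at 2.87 to 5.22 CPM in WT and 1.15 to 1.87 CPM in Blimp1-flox. Among 10 tested coactivators and other nuclear regulators, the acetyltransferase gene Ep300 had -0.29 and Bcl3, an atypical I-kappa-B protein outside the member list, -0.21. Neither passed (edgeR adjusted p = 0.293 and 0.320).

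Of 26 NF-kB target genes known in T cells, 2 fell, none rose and 24 did not pass, against 0.243% of all tested genes that fell. The median log2 fold change of the targets was -0.22, and 20 of 26 were negative, against 49.9% of all tested genes. At an edgeR unadjusted p under 0.05, 8 were lower, against 9.05% of all tested genes, and none was higher. DESeq2 called 2 lower and limma-voom 3, against 1.89% and 2.27% of all genes they tested. The genes that fell were Il2ra, the IL-2 receptor alpha chain, which is also a STAT5 target, and Irf1, which is also induced by interferons. The part of any of these pathways in their levels was not tested. Il2ra stood at 81.3 to 121 CPM in WT and 28.1 to 55.4 CPM in Blimp1-flox (log2 fold change -1.39, edgeR adjusted p = 0.0311). Irf1 stood at 614 to 627 CPM in WT and 408 to 509 CPM in Blimp1-flox (log2 fold change -0.50, edgeR adjusted p = 0.0339). Leaving out WT 2 or any of Blimp1-flox 1, 2 and 4 ended the call on Il2ra (edgeR adjusted p of at most 0.105), while its log2 fold change stayed between -1.45 and -1.26. Leaving out any of these or WT 3 ended the call on Irf1 (edgeR adjusted p of at most 0.170), and so did a replicate block (0.0657), with log2 fold changes between -0.50 and -0.46.

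Receptors that feed the pathway were spread in both directions. EdgeR called none of 25 tested, 13 were positive and 12 negative, and the median log2 fold change was 0.0022. At an unadjusted p under 0.05, 5 were lower and 4 higher, against 9.05% of all tested genes that were lower and 16.2% in either direction. Among the 5, and named after their values were seen, Tnfrsf13c, Cd40 and Tlr7 are genes that B cells express. They were highest in WT 4, at 28.0, 9.55 and 4.85 CPM, against 3.11 to 7.90, 1.86 to 4.48 and 2.15 to 2.54 CPM in the other WT libraries. DESeq2 called 1 receptor lower and 2 higher, against 1.89% lower and 3.36% in either direction of all genes it tested. Limma-voom called 1 in each direction, against 2.27% lower and 4% in either direction. Il18r1, the IL-18 receptor chain, stood at 2.42 to 5.34 CPM in WT and 7.01 to 13.1 CPM in Blimp1-flox, which is 1.31 on the log2 scale (edgeR adjusted p = 0.0579). Tnfrsf1b, the TNF receptor 2 that is prominent on regulatory T cells, stood at 757 to 889 CPM in WT and 465 to 688 CPM in Blimp1-flox, which is -0.52 on the log2 scale (edgeR adjusted p = 0.0703). Neither gene overlapped between the groups, and both passed without a filter on low counts (edgeR adjusted p = 0.0291 and 0.0419), with the pancreas class as a term, in DESeq2 and in limma-voom. Neither passed with RLE scaling, library totals, the stricter filter or a replicate block (0.0936 and 0.0887). With 1 library left out, Il18r1 passed only without WT 4 or Blimp1-flox 3, and Tnfrsf1b in no case, with adjusted p up to 0.234 and 0.236. Of the 24 immediate early genes edgeR called none, 20 were negative, and the median was -0.28. At an unadjusted p under 0.05, 12 of the 24 were lower, against 9.05% of all tested genes, and none higher. DESeq2 and limma-voom each called 3 lower, against 1.89% and 2.27%. Klf6 and Ppp1r15a had the lowest p-values of that list, with log2 fold changes of -0.43 and -0.46 (edgeR adjusted p = 0.103 for both).

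**Figure D5:**
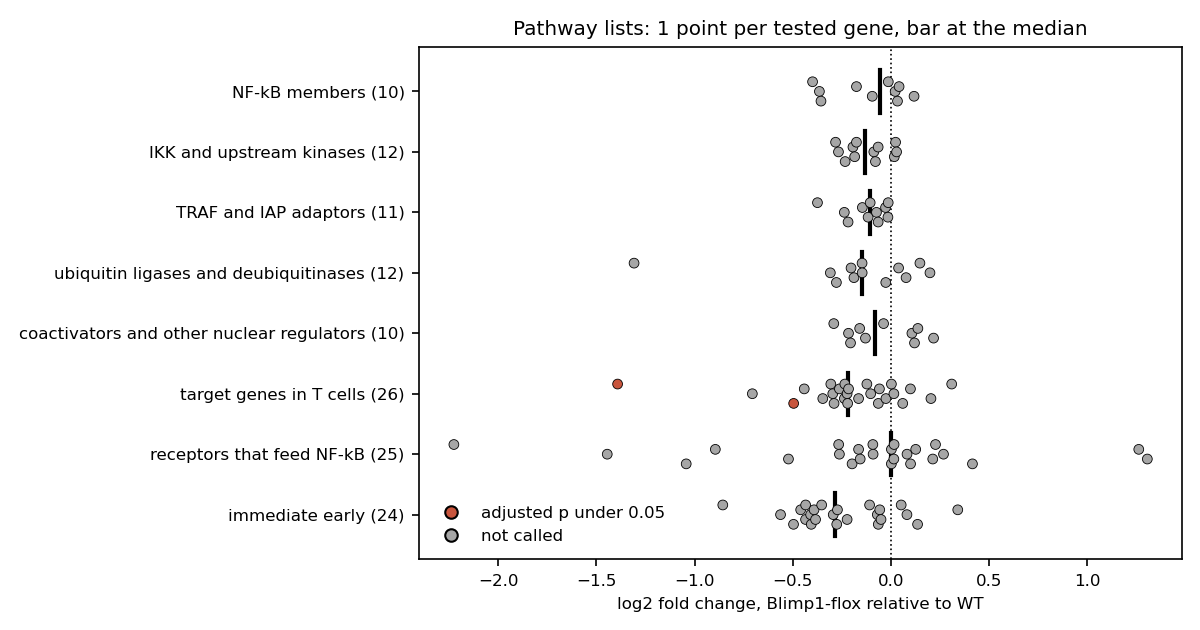
Log2 fold change, Blimp1-flox relative to WT, of the 10 members and of each tested gene in 7 lists (number in brackets), with 1 point per gene and a bar at the list median. Red points, Il2ra and Irf1 among the target genes, have an edgeR adjusted p under 0.05. Genes in 2 lists appear in both.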

How the data were processed

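RNA of the sorted cells was made into libraries with a KAPA mRNA Hyperprep kit, per the labels' protocols. The submitters' processing notes list STAR 2.5.2b, featureCounts (Subread 1.5.1) and mm10. The authors deposited whole-number counts for each gene, with its exon length. No source used here gives the annotation or the strand setting.

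Genes were kept with filterByExpr (12363 genes), scaled by TMM and tested with the edgeR 4.0.16 quasi-likelihood F test (R 4.3.3; genotype alone, robust), with Benjamini-Hochberg adjustment over all tested genes and a threshold of 0.05. Standard errors and 95% intervals come from the F statistic. Log2 CPM used a prior count of 2. Alternatives were RLE scaling, library totals, DESeq2 1.42.0, limma-voom 3.58.1, 2 other filters, a replicate block and left-out libraries.

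The members, gene lists and tests were chosen with earlier results of these data known. Named are all 10 members, Prdm1, called genes of each pathway list or else its 2 genes of lowest p, B cell and TFR markers, and the 3 genes of mean log2 CPM at least 4 most like each of the 2 members of lowest p. Some genes that this rule names, and 1 list, are not reported here.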

Additional observations from a re-analysis of the deposited data

Results flagged for a closer look

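Within groups of 4 libraries, the highest or lowest library was compared with the others by Dixon's gap over the range, with a critical value of 0.829. Of 76 such groups 2 passed, and chance alone gives about 1 in 20. Both were in WT 4. Relb stood at 201 CPM in WT 4 and at 240 to 244 CPM in the other WT libraries. Tnip3 stood at 5.22 CPM in WT 4 and at 2.87 to 3.20 CPM in the others.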

How the results depend on the processing

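The count of called genes, 62 in edgeR, was 20 to 127 with 1 library left out (127 without WT 1, 94 without Blimp1-flox 3, and 27, 23 and 20 without WT 2, Blimp1-flox 4 and Blimp1-flox 1), 157 without WT 4 and Blimp1-flox 3, 455 in DESeq2, 494 in limma-voom, 391 with the pancreas class as a term and 182 at an adjusted p under 0.1. The count of called members, 0 in edgeR, was 1 in DESeq2, 2 in limma-voom and 1 with the pancreas class, and 0 in every fit with a library left out. The count of called pathway genes, 2 of 116, was 0 to 4 with 1 library left out, 5 without WT 4 and Blimp1-flox 3, 10 in DESeq2, 11 in limma-voom, 4 with no filter, 1 with a replicate block and 10 with the pancreas class. Prdm1 lost its call with no filter (-2.14, adjusted p = 0.0502) and without Blimp1-flox 1 (-2.21, adjusted p = 0.103), and ran from -2.36 to -1.95 with 1 library left out. The B cell sum differed by -293 to -65.4 CPM with 1 library left out, and by -293 CPM without WT 1 (exact permutation p = 0.0286). The median of the members ran from -0.11 to -0.015. Nfkbia, Nfkbid, Nfkb2, Rel and Nfkb1 kept their sign in all alternatives. Members near 0 did not: Rela was -0.010 in limma-voom, -0.066 without WT 4 and Blimp1-flox 3, and -0.045 (without WT 4) to 0.12 with 1 library left out. Relb was -0.068 in limma-voom, -0.091 without both, and -0.042 to 0.061 with 1 library left out. Nfkbib was -0.013 without both and -0.012 (without WT 3) to 0.14 with 1 left out. With 1 library left out, Nfkbie ran from -0.059 to 0.024 (without WT 4) and Nfkbiz from -0.16 to 0.0024 (without WT 2). Tnip3 and Ms4a1 were left out by the stricter filter. The cause of these shifts was not tested.

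With the replicate number as a block, the log2 fold changes of Nfkbid and Nfkbia were -0.36 and -0.37 (edgeR adjusted p = 0.145 and 0.180), and no member was called. Deviations of same-numbered libraries correlated at 0.10, 0.153, -0.102 and -0.108 across genes, so the numbers were not taken as pairs, and only number 2 correlated best with itself.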

Other observations

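Rel had the largest RMS differences from the other members, and it also varied most, which by itself raises that measure. Its nearest genes were therefore also listed, a choice made after its values were seen. The genes most like Rel over the 8 libraries were Tiparp, Zbtb21 and Per1, with RMS differences of 0.083, 0.090 and 0.11. The median was 0.41 over 7815 candidates, and the nearest genes lie below it by the way they were picked. The log2 fold changes of Tiparp, Zbtb21 and Per1 were -0.47, -0.39 and -0.24, and none passed (edgeR adjusted p = 0.421, 0.476 and 0.643). The genes most like Nfkb1 were Mrpl41, Mrps5 and Snrpg, the first and second of which encode mitochondrial ribosomal proteins, with RMS differences of 0.031, 0.038 and 0.042.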
